A study of Homo sapiens with 2 samples.

Results

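Solute carriers (SLC) are membrane proteins that move nutrients, ions, metals and metabolites across the plasma membrane and the membranes of organelles. Their transcripts were measured in KYSE-170, a cell line from a human squamous carcinoma of the oesophagus. The members are genes whose symbol, updated to its current name, is SLC followed by a number, and they were selected on level: a probe counted if the mean of its 2 deposited intensities was 40 or higher. The SLCO genes were left out by this rule. Of 307 SLC probes for 286 genes on the array, 141 probes for 133 genes met it. They are 141 of the 11868 probes at that level and of the 24267 probes in all.

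Cells in 1 sample were transfected with an oligoribonucleotide for miR-210, and cells in the other with one called ncRNA. Both were handled with the same transfection reagent, and total RNA of each was labelled with Cy5 and hybridised to 1 single-colour oligonucleotide array. The labels give neither the dose nor the time after transfection, nor the sequence called ncRNA. There is 1 array per group, so the difference between the groups has no replicate check and no test or p-value is given. All differences below are log2 ratios, miR-210 over ncRNA, with the arrays quantile normalized, and intensities are the deposited values. Intensities of different probes are not read as relative amounts of transcript. Sums over marker lists only set 1 array against the other. In bulk RNA of this kind, fewer cells that express a transcript and less of it in each cell cannot be told apart.

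SLC families differ in structure and mechanism, and the number in the symbol marks the family and not the substrate. Most carriers of amino acids, sugars and nucleosides work at the cell surface or in lysosomes, while the SLC25 family sits mainly in the inner mitochondrial membrane. miR-210 rises in many cells when oxygen is scarce, and microRNAs pair with transcripts mainly through their seed, bases 2 to 8. The labels do not say which arm was transfected, so both mature forms listed by RefSeq (GRCh38.p14, chromosome 11, minus strand) are shown, with the seed in capitals, because they define the agent compared.
hsa-miR-210-3p: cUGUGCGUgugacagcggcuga
hsa-miR-210-5p: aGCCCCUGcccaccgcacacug
Both are 22 bases long. The 3p form lies at chr11:568112-568133 and the 5p form at chr11:568150-568171. A transcript site complementary to the 3p seed reads ACGCACA, and one complementary to the 5p seed reads CAGGGGC. Transcript sequences of the carriers were not searched for them here.

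The median intensity was 36 on the miR-210 array and 39 on the ncRNA array, with 75th percentiles of 150 and 162. Over all 24267 probes the arrays correlated with a Spearman rho of 0.92, and over the 141 SLC probes with 0.93. Of the squamous epithelial markers, 7 of the 8 with a probe met the level, and 6 of those 7 were above 0, with a median log2 ratio of 0.24. The keratin KRT17 read 2736 on the miR-210 array and 1541 on the ncRNA array (2.02-fold higher), KRT5 read 496 and 290 (0.89), and the epithelial adhesion molecule EPCAM 6165 and 4502 (0.66). SFN, the epithelial 14-3-3 protein, was the one under 0, with 7094 and 12693 (-0.57), and the sum of all 8, 17062 and 19595, is lower on the miR-210 array with SFN as its largest term. TP63, a squamous transcription factor, read only 22 and 57 and missed the level. The part of this marker pattern in the SLC results was not tested. Markers of other cell types summed to 176 and 174 for leukocytes, 240 and 242 for fibroblasts, 204 and 244 for endothelium and 46 and 34 for hepatocytes. Of these lists, the probes at the level were CD79A (126 and 133), a leukocyte gene, DCN (181 and 183), a fibroblast gene, and the endothelial genes KDR (36 and 66) and VWF (103 and 126). The broader leukocyte gene PTPRC read 10 and 9, and the fibroblast collagen COL1A1 16 and 21. The only error measured comes from probes of the same gene: over 246 genes with at least 2 probes at the level, a single probe scattered around its gene with an SD of 0.44 in log2 ratio. Variation from culture to culture, or between arrays, is not part of this SD.

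At least 2-fold differences were few. On the miR-210 array 4 SLC probes were higher and 5 lower by 2-fold or more, which is 2.84% and 3.55% of the 141. Over all probes at the level the same calls made up 2.84% and 3.19%, or 6.02% in either direction against 6.38% of the SLC probes, so the shares lie near the background and are no result about the carriers. The lower calls of SLC16A9, SLC4A2 and SLC66A2 met the mean of 40 through the ncRNA array alone, and the higher call of SLC1A4 through the miR-210 array alone. With both values at least 40 the counts were 3 and 2, or 2.33% and 1.55% against 2.32% and 2.33% of all probes. With an offset of 10 the counts were 2 and 4, or 1.42% and 2.84% against 2.15% and 2.46% of all probes. The offset ended the calls of SLC1A4, SLC6A15 and SLC66A2. On the deposited scale, with no normalization between arrays, the calls were 0 and 7 for SLC probes. These were 0% and 4.96%, against 1.99% and 4.62% of all probes. On that scale higher probes made up 30.1% of all calls in place of 47.1%. The median log2 ratio of the SLC probes was 0.06, against 0.00 for all probes at the level. With the 2-fold probes counted in, 36 of 141 SLC probes (25.5%) lay more than 0.44 above 0 and 14 (9.93%) more than 0.44 below it, where all probes, counted the same way, gave 16.9% and 17%. These counts at 0.44 were chosen after the values were seen and carry no test. Between the quartiles the SLC probes ran from -0.21 to 0.45, against -0.30 to 0.30 for all probes.

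**Figure D1:**
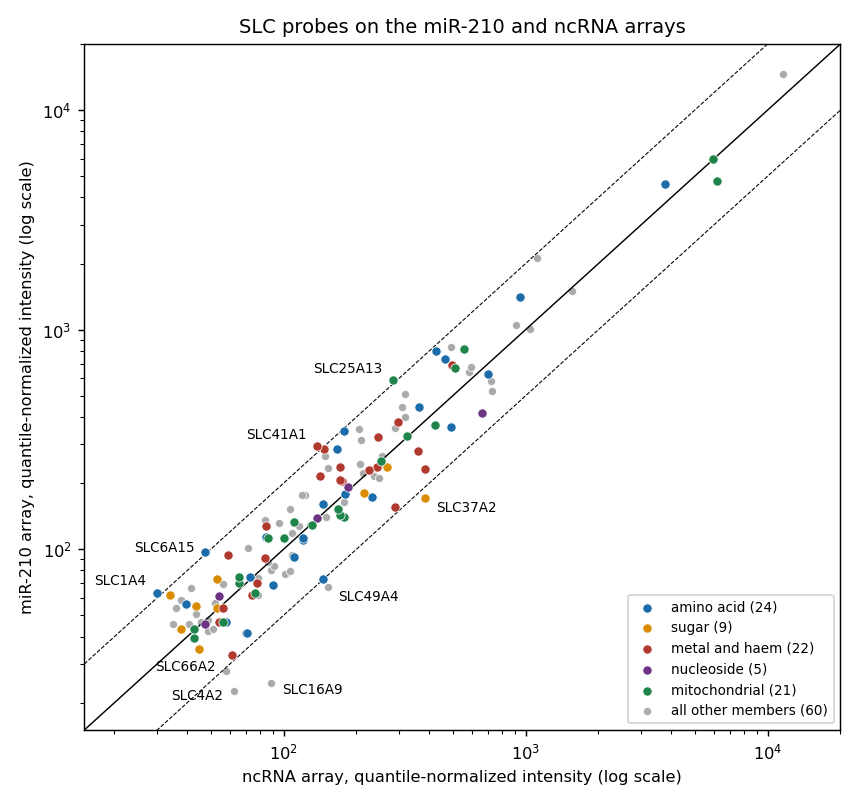
Quantile-normalized intensity of each of the 141 SLC probes on the miR-210 array (vertical, log scale) and on the ncRNA array (horizontal, log scale), coloured by carrier group with the number of probes in brackets. The solid line marks equal values and the dashed lines 2-fold differences; 9 named probes lie on or beyond the dashed lines, 4 above and 5 below.

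Among the probes that were lower by at least 2-fold, SLC16A9, a carrier of the monocarboxylate transporter family, read 24 on the miR-210 array and 93 on the ncRNA array and was 3.63-fold lower, a log2 ratio of -1.86. SLC4A2, the chloride/bicarbonate exchanger AE2, read 22 and 65 and was 2.78-fold lower. SLC49A4, a lysosomal membrane protein formerly named DIRC2, read 65 and 158 and was 2.25-fold lower. SLC37A2, a sugar phosphate exchanger of the endoplasmic reticulum, read 165 and 401 and was 2.24-fold lower, and SLC66A2 read 27 and 60 and was 2.07-fold lower. On the miR-210 array the SLC16A9, SLC4A2 and SLC66A2 probes were thus under the array median of 36.

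On the higher side, SLC41A1, a plasma membrane magnesium carrier, read 282 on the miR-210 array and 143 on the ncRNA array and was 2.14-fold higher. SLC1A4, the neutral amino acid exchanger ASCT1, read 61 and 31 and was 2.12-fold higher, with the ncRNA value under that array's median of 39. SLC25A13, the mitochondrial aspartate/glutamate carrier citrin, read 570 and 296 and was 2.09-fold higher. A dim probe of SLC6A15, a carrier of branched-chain neutral amino acids, read 93 and 49 and was 2.04-fold higher. In all, 4 of the 9 probes had 1 value under its array's median.

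**Figure D2:**
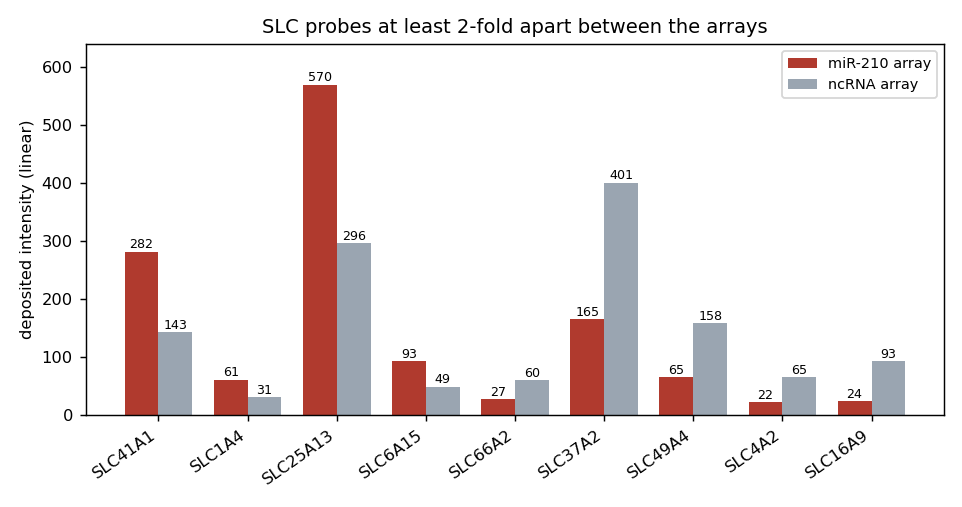
Deposited intensity (linear scale) of the 9 SLC probes at least 2-fold apart, with the miR-210 array in red and the ncRNA array in grey, ordered from the highest to the lowest log2 ratio. SLC41A1, SLC1A4, SLC25A13 and SLC6A15 are higher on the miR-210 array, and the other 5 are lower; each bar is 1 measurement with no error.

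Amino acid and peptide carriers made up 24 probes of 21 genes. Of these, 13 were above 0 and 11 under it, with a median of 0.10; 8 lay more than 0.44 above 0 and 3 more than 0.44 below. Without normalization between arrays the median was -0.011, on a scale where the median of all probes was -0.13. Among the heteromeric exchangers, SLC7A11, the cystine/glutamate exchanger xCT, read 331 on the miR-210 array and 185 on the ncRNA array and was 1.94-fold higher. Its heavy chain SLC3A2, which carries several light chains to the cell surface, read 423 and 377, a log2 ratio of 0.29, within the spread of a probe. The large neutral amino acid light chain SLC7A5 read 702 and 484 at its brighter probe, a log2 ratio of 0.66, and 171 and 187 at the other, a log2 ratio of -0.01. The light chain SLC7A6 read 110 and 88 (0.43). SLC7A9, the light chain for cystine and dibasic amino acids in kidney and gut, went the other way with 70 and 151, a log2 ratio of -0.99, just short of 2-fold.

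The sodium-coupled SLC38 carriers of glutamine and other neutral amino acids were mostly on the higher side. SLC38A1 read 1323 on the miR-210 array and 999 on the ncRNA array, a log2 ratio of 0.57. SLC38A2 read 4274 and 4052 (0.28), SLC38A5 54 and 41 (0.50), and SLC38A6 109 and 125 (-0.09). In the SLC1 family 3 of 4 members were under 0. The glutamine exchanger SLC1A5 read 602 and 732 (-0.17), and the glutamate carriers SLC1A3 and SLC1A6, known mainly from brain, read 66 and 94 (-0.39) and 40 and 73 (-0.76), so that only SLC1A4 in this family was above 0.

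The remaining amino acid carriers were mixed. SLC36A4, a proton-linked family member, read 272 on the miR-210 array and 172 on the ncRNA array, a log2 ratio of 0.78, and the taurine carrier SLC6A6 read 155 and 151 (0.16). The 3 probes of SLC6A15 disagreed: the brightest read 764 and 447 (0.91), the dimmest gave the 2-fold call above, and the third read 346 and 513 (-0.45). The peptide carriers SLC15A2 and SLC15A4 read 166 and 241 (-0.43) and 72 and 75 (0.05). The lysosomal exporter of cationic amino acids SLC66A1 read 45 and 60 (-0.32), and SLC43A1, a carrier of large neutral amino acids, read 89 and 114 (-0.25). SLC7A4 read 106 and 125 (-0.13).

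Probes for enzymes and sensors of amino acid use were mostly under 0. Of 20 probes at the level from a list of 25 genes, 7 were above 0 and 13 under it, with a median of -0.17. Above 0 lay 35% of them, against 49.6% of all probes at the level, and counts this small carry no test. SHMT1, the cytosolic serine hydroxymethyltransferase, was the only one at least 2-fold apart. It read 36 on the miR-210 array and 101 on the ncRNA array (2.59-fold lower). This probe met the level through the ncRNA array alone, and its 36 equals the miR-210 array median. Another SHMT1 probe, under the level, read 15 and 22 (-0.52) and was not 2-fold apart. PSAT1, a serine synthesis enzyme, read 125 and 83 (0.70). ASNS, the asparagine synthetase, read 792 and 914 (-0.06), and the transcription factor ATF4, known to act on several of these carriers, read 722 and 929 (-0.22).

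Sugar carriers numbered 9 probes of 9 genes, 5 above 0 and 4 under it, with a median of 0.03. The median has no firm direction: it was -0.25 over the 3 probes with a mean of at least 80, -0.074 with both values at least 40 and -0.081 without normalization between arrays. SLC2A1, the widely expressed glucose carrier GLUT1, read 228 on the miR-210 array and 279 on the ncRNA array, a log2 ratio of -0.17. SLC2A8, an intracellular hexose carrier, read 60 and 35 (0.87), and the urate carrier SLC2A9 read 53 and 45 (0.34). SLC2A6 read 52 and 55 (0.03) and SLC5A2, the sodium-coupled glucose carrier of kidney, 42 and 39 (0.21). Within the SLC37 family the members went apart: SLC37A2 was the 2-fold lower probe given above, SLC37A1 read 70 and 55 (0.46) and SLC37A3 34 and 46 (-0.35). SLC45A1 read 173 and 223 (-0.25). Beside them, 9 probes for glycolytic enzymes and carrier partners had 5 above 0 and 4 under it, with a median of 0.04 and none 2-fold apart; the hexokinase HK2 read 195 and 124 (0.75) and TXNIP, an arrestin-like protein that promotes uptake of glucose carriers from the surface, 352 and 744 (-0.96).

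Monocarboxylate and organic acid carriers numbered 6. SLC16A1, the lactate and pyruvate carrier MCT1, read 1990 on the miR-210 array and 1168 on the ncRNA array, a log2 ratio of 0.93 or 1.9-fold higher. SLC16A3, the lactate exporter MCT4, read 76 and 111 (-0.42). SLC16A5 read 57 and 39 (0.65), SLC16A8 55 and 54 (0.13) and the citrate carrier SLC13A2 41 and 50 (-0.19), and with SLC16A9 the group spanned -1.86 to 0.93. BSG, the chaperone of SLC16A1 and SLC16A3, read 146 and 141 (0.16).

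**Figure D3:**
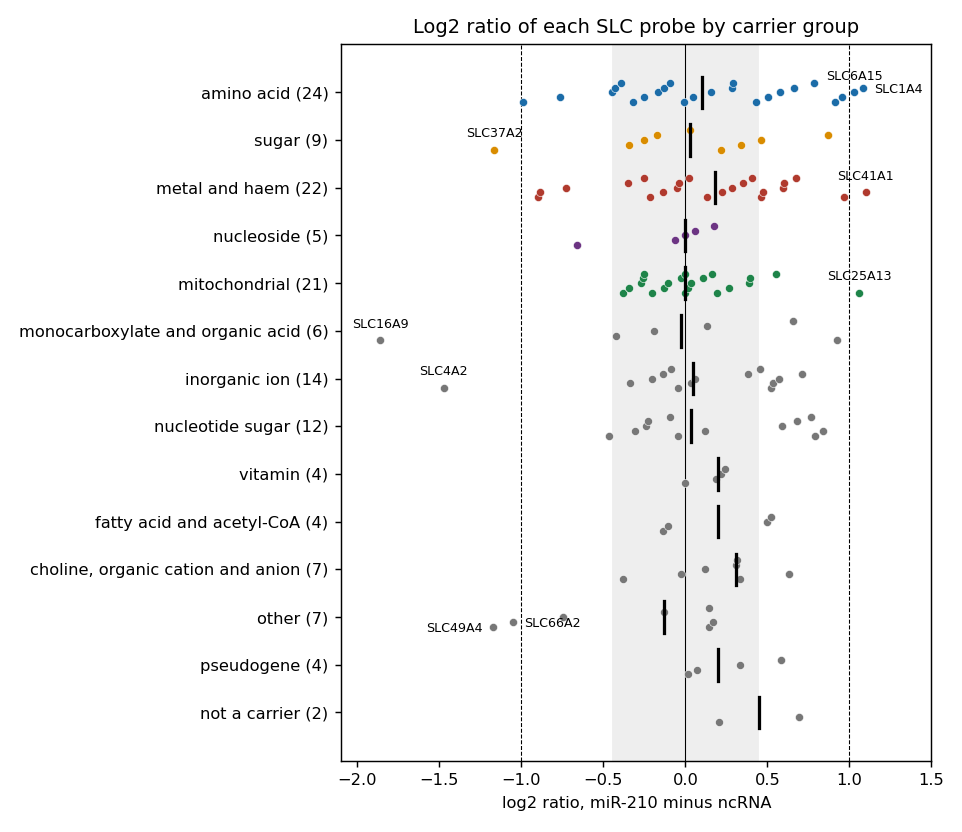
Log2 ratio of miR-210 over ncRNA (horizontal) for each SLC probe, in rows by carrier group with the number of probes in brackets; black ticks are group medians, the grey band is the SD of a single probe around its gene (0.44) and the dashed lines are 2-fold. Mitochondrial carriers lie mostly inside the band, while amino acid and metal carriers spread beyond it on both sides.

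Metal carriers numbered 22 probes of 21 genes, 13 above 0 and 9 under it. Their median was 0.18, and it was 0.065 without normalization between arrays. The copper importer SLC31A1 read 274 on the miR-210 array and 153 on the ncRNA array, a log2 ratio of 0.97, whereas its relative SLC31A2, an endolysosomal protein that modulates copper uptake, read 223 and 400 (-0.73). SLC11A2, the divalent metal carrier DMT1 that imports iron, read 207 and 148 (0.60). Of the SLC41 magnesium carriers only SLC41A1 was far from 0, with SLC41A2 at 88 and 87 (0.13) and SLC41A3 at 52 and 58 (-0.05).

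Zinc is exported from the cytosol by SLC30 proteins and imported into it by SLC39 proteins. In the SLC30 family 6 of 8 probes, for 7 genes, were above 0, with a median of 0.32. Of all probes at the level, 49.6% were above 0, and counts this small carry no test. The plasma membrane exporter SLC30A1 read 124 on the miR-210 array and 88 on the ncRNA array (0.60). SLC30A5 and SLC30A6, which pair to load zinc into the secretory pathway, stood at 0.48 and 0.35 for the 2 probes of SLC30A5 (664 and 517, then 363 and 311) and at 0.67 for SLC30A6 (90 and 61). SLC30A7 read 200 and 177 (0.28), SLC30A9 221 and 234 (0.02) and SLC30A4 60 and 77 (-0.26). SLC30A3, a carrier of synaptic vesicles, read 32 and 63 (-0.89), the 32 lying under its array's median.

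In the SLC39 family 3 of 8 probes were above 0, with a median of -0.09. SLC39A3 read 149 on the miR-210 array and 302 on the ncRNA array and was 1.86-fold lower (-0.90). SLC39A8, which also carries manganese, read 267 and 373 (-0.35). SLC39A6 and SLC39A10, which form a complex, read 197 and 182 (0.22) and 311 and 254 (0.41), and SLC39A7, which releases zinc from the endoplasmic reticulum, 227 and 178 (0.46). SLC39A4, SLC39A11 and SLC39A13 lay between -0.22 and -0.04.

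Of the other metal-handling genes, 13 probes of 11 genes were at the level, 3 above 0 and 10 under it, with a median of -0.24. IREB2, an iron-sensing RNA-binding protein, read 632 on the miR-210 array and 232 on the ncRNA array and was 2.94-fold higher. The ferritin heavy chain FTH1 read 15949 and 29791 (-0.63) at its brighter probe and 1314 and 2696 (-0.87) at the other. The metallothionein MT1E read 2549 and 8329 and was 2.77-fold lower, while MT2A read 24380 and 27513 (0.12). Probes of MT1F at the level went opposite ways, with 376 and 339 (0.27) and 2450 and 4456 (-0.69). Metallothionein genes are near-identical copies, so their probes may share signal. The transferrin receptor TFRC read 2708 and 3684 (-0.24).

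Nucleoside carriers numbered 5 probes of 4 genes, with a median of 0.00. SLC29A3, the lysosomal equilibrative nucleoside carrier, read 399 on the miR-210 array and 686 on the ncRNA array and was 1.58-fold lower (-0.66). The surface carrier SLC29A1 read 44 and 49 (-0.06), close to the array medians. SLC29A4, a carrier of monoamines and adenosine, read 133 and 143 (0.00). The concentrative carrier SLC28A1 read 185 and 192 (0.06) and 59 and 56 (0.18) at its probes. Among 10 probes for salvage enzymes and related genes, 5 were above 0 and 5 under it, with a median of 0.03; the ectonucleotidase NT5E read 910 and 567 (0.81), and thymidine kinase TK1 911 and 1469 (-0.52).

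Mitochondrial SLC25 carriers numbered 21 probes of 20 genes, with 10 above 0, 10 under it and a median of 0.00. Only SLC25A13 and SLC25A4 lay beyond 0.44, both on the higher side, and none lay below -0.44. The other aspartate/glutamate carrier, SLC25A12, read 125 on the miR-210 array and 136 on the ncRNA array (-0.03), while SLC25A13 stood at 1.06. The 0.44 is for a single probe and not for a difference between genes, and whether the pair differed was not tested. Of the ADP/ATP carriers, SLC25A4 read 778 and 573 (0.55), SLC25A5 5460 and 6480 (0.00) and SLC25A6 243 and 262 (0.00). These 3 genes are close copies, and signal shared between their probes was not tested. SLC25A3, the phosphate carrier, read 4386 and 6692 and gave the lowest ratio of the family, -0.38.

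Carriers of citrate and dicarboxylates were near 0, with SLC25A1 at 352 on the miR-210 array and 444 on the ncRNA array (-0.21), SLC25A11 at 314 and 337 (0.02) and SLC25A10 at 108 and 104 (0.16). The calcium-regulated ATP-Mg/phosphate carriers SLC25A24, SLC25A23 and SLC25A25 stood at 0.39 (643 and 531), 0.11 (68 and 68) and -0.25 (137 and 177). SLC25A15, the ornithine carrier, read 128 and 114 (0.27), and SLC25A26, the S-adenosylmethionine carrier, 134 and 184 (-0.34). SLC25A28, the iron carrier mitoferrin 2, read 147 and 174 (-0.13), and SLC25A51, the NAD carrier, 42 and 44 (0.03). The other 5 probes, for SLC25A14, SLC25A16, SLC25A21 and SLC25A17, which acts in peroxisomes, lay between -0.27 and 0.39.

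Other proteins of mitochondrial membrane passage gave 13 probes, 8 above 0 and 5 under it, with a median of 0.16. SFXN4, a sideroflexin, read 401 on the miR-210 array and 122 on the ncRNA array and was 3.56-fold higher, and its relative SFXN2 read 56 and 119 (-0.99). The pore proteins VDAC1, VDAC2 and VDAC3 stood at 0.42, 0.19 and 0.16, and the calcium uniporter MCU at -0.61 (169 and 280).

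The SLC35 family, grouped here as nucleotide sugar carriers, numbered 12, 6 above 0 and 6 under it, with a median of 0.04. Without normalization between arrays the median was -0.10. The group was taken by family number, so the name does not give the substrate of each member. Of them, 5 lay at 0.59 or above, and the other 7 lay between -0.47 and 0.12. SLC35B3, a carrier of the sulfate donor PAPS, read 254 on the miR-210 array and 154 on the ncRNA array (0.84), and SLC35A1, the CMP-sialic acid carrier, 340 and 212 (0.79). SLC35F2 read 797 and 511 (0.77), SLC35D1 64 and 43 (0.68) and SLC35E1 301 and 217 (0.59). Under 0, SLC35A3, the UDP-N-acetylglucosamine carrier, read 505 and 759 (-0.47) and SLC35F5 564 and 756 (-0.31), and SLC35B1 stood nearer 0 with 956 and 1098 (-0.05). SLC35A4, SLC35D2, SLC35E3 and SLC35A5 lay between -0.24 and 0.12.

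Inorganic ion carriers numbered 14, with 8 above 0, 6 under it and a median of 0.04. Over the 9 with a mean of at least 80 the median was 0.45, and over all 14 without normalization between arrays it was -0.059. Their higher members were SLC26A11 with 132 on the miR-210 array and 87 on the ncRNA array (0.71), SLC9D1 with 170 and 123 (0.57), the sodium-potassium-chloride cotransporter SLC12A2 with 426 and 322 (0.53), the iodide and chloride exchanger SLC26A4 with 146 and 110 (0.52) and the sulfate carrier SLC26A2 with 127 and 100 (0.45). All 3 SLC26 carriers at the level were among them, while the pseudogene SLC26A10P stood at 0.02. These higher members were grouped by their values, and counts this small carry no test. Of all probes at the level, 16.9% were higher by more than the SD of a single probe. The phosphate carriers SLC20A1 and SLC20A2 read 1413 and 1642 (-0.04) and 60 and 82 (-0.34). SLC4A7, a sodium bicarbonate cotransporter, read 255 and 265 (0.06), SLC4A11 90 and 113 (-0.21) and SLC8A2 44 and 36 (0.38). SLC8B1, SLC9A5 and SLC9A8 lay between -0.14 and 0.03.

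Vitamin carriers stayed within 0.24 of 0, among them the riboflavin carrier SLC52A2 with 647 on the miR-210 array and 612 on the ncRNA array (0.19), SLC5A6, the carrier of biotin and pantothenate, with 236 and 215 (0.24), and the thiamine carriers SLC19A2 (49 and 45, 0.22) and SLC19A3 (125 and 133, 0.00). SLC44A1, a choline carrier, read 226 and 158 (0.63), and the carnitine carrier SLC22A5 74 and 105 (-0.38). SLC10A3, SLC18B1, SLC22A3, SLC22A12 and SLC22A14 lay between -0.03 and 0.33. SLC33A1, the acetyl-CoA carrier of the endoplasmic reticulum, read 169 and 127 (0.52), and the fatty acid handling proteins SLC27A2, SLC27A3 and SLC27A5 stood at 0.50, -0.13 and -0.11. Among carriers in none of these groups, the betaine carrier SLC6A12 read 40 and 72 (-0.74), the creatine carrier SLC6A8 80 and 95 (-0.13) and 44 and 42 (0.17), and SLC17A5 and SLC71A1 both stood at 0.14.

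The rule also took in 6 probes that do not belong to a carrier gene. SLC4A1AP, which encodes an adaptor protein, read 492 on the miR-210 array and 330 on the ncRNA array (0.69), and SLC2A4RG, a transcription factor, 992 and 954 (0.20). The other 4 are for pseudogenes: SLC71A3P with 12943 and 12581 (0.33) and 214 and 220 (0.07), SLC6A10P with 52 and 37 (0.58) and SLC26A10P with 84 and 90 (0.02). Without these 6, the median of the 135 carrier probes was 0.05.

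In all, 7 SLC genes had more than 1 probe at the level. SLC30A5, SLC28A1 and the pseudogene SLC71A3P had probes of the same sign within 0.44 of each other. SLC7A5, SLC25A16 and SLC6A8 had 1 probe above 0 and 1 under it, and so did SLC6A15 among its 3. For the 9 probes at least 2-fold apart, SLC6A15 was the only gene with another probe at the level, and SLC37A2 had a second probe under the level, with 26 on both arrays and a log2 ratio of 0.06. The other 7 have no second probe to set against them.

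**Figure D4:**
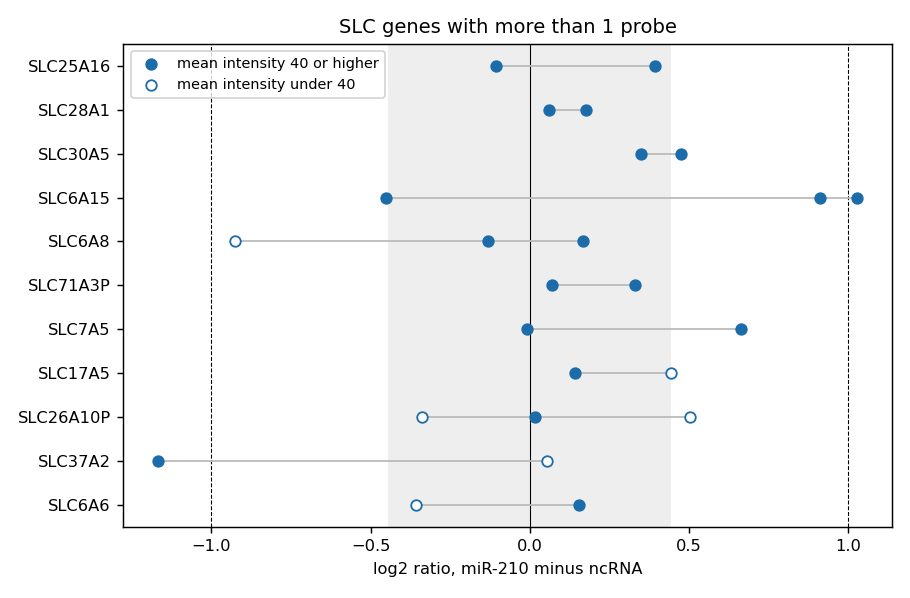
Log2 ratio of miR-210 over ncRNA (horizontal) for every probe of the SLC genes with more than 1 probe, filled for probes with a mean intensity of 40 or higher and open for dimmer ones. The grey band is the SD of a single probe (0.44) and the dashed lines are 2-fold; the probes of SLC6A15 run from -0.45 to 1.03.

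The level rule left out 166 SLC probes of 158 genes. Just inside it were SLC8A2 with 44 on the miR-210 array and 36 on the ncRNA array, SLC37A3 with 34 and 46, and SLC5A2 with 42 and 39. Just outside were SLC35H1 with 36 and 43, SLC17A7 with 35 and 43, and SLC22A9 with 18 and 58. Of the members, 9 had 1 of their values under the array median. The spread of the log2 ratios was 0.59 (SD, 44 probes) for members with a mean intensity from 40 to under 80 and 0.41 (SD, 13 probes) for those at 640 or higher, against 0.56 and 0.44 for all probes at those levels.

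Promoters of the expressed carriers were richer in G and C than those of the SLC genes without a probe at the level. RefSeq promoters of GRCh38.p14, 300 bases from 250 before the gene start, were matched for 110 of 128 carrier genes and had a median of 67% G and C and 27 CpG pairs. For 118 of 153 SLC symbols with no probe at the level the medians were 59.8% and 11, and for all 27305 promoters 58.3% and 14. Since level chose the members, these medians describe which SLC genes gave signal and say nothing of miR-210.

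Letters of known response elements were searched on both strands, and a match is a description and not a site. The core of the amino acid response element, TGATGNAA, was in 6 of 110 carrier promoters (5.45%) and in 3 of 17 of amino acid carriers, against 3.67% of all promoters. In SLC genes with no probe at the level it was in 8 of 118 promoters (6.78%). The amino acid carriers with it were SLC1A3, SLC38A1 and SLC3A2, with log2 ratios of -0.39, 0.57 and 0.29. The stretches around the match are shown for SLC1A3 and SLC38A1 because the core stands in promoters of members on opposite sides of 0. The SLC1A3 ratio of -0.39 lies within the spread of a probe, so its side is not settled. Capitals mark the match. It lies before the gene start in SLC1A3 and spans it in SLC38A1, with 4 bases from the start on, and the letter at N is not the same in both. The match in SLC3A2 lies after the start and is not shown.
SLC1A3 (chr5:36596348-36596395, plus strand): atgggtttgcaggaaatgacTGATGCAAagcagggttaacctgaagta
SLC38A1 (chr12:46266513-46266540, minus strand): catttgtcctcagacccgaaTGATGAAA
The metal response element core was searched in a loose form, TGCNCNC, which also takes letters that the strict core does not allow. This loose form was in 9 of 19 promoters of metal carriers and in 55.2% of all promoters. Its counts can exceed those of the strict core, which was not searched. The hypoxia response element core, ACGTG, was in 28 of 110 carrier promoters (25.5%) and in 21.6% of all. The loose metal form was in 67 of 110 carrier promoters (60.9%). In SLC genes with no probe at the level, the loose metal form was in 79 of 118 (66.9%) and the hypoxia core in 21 of 118 (17.8%).

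**Figure D5:**
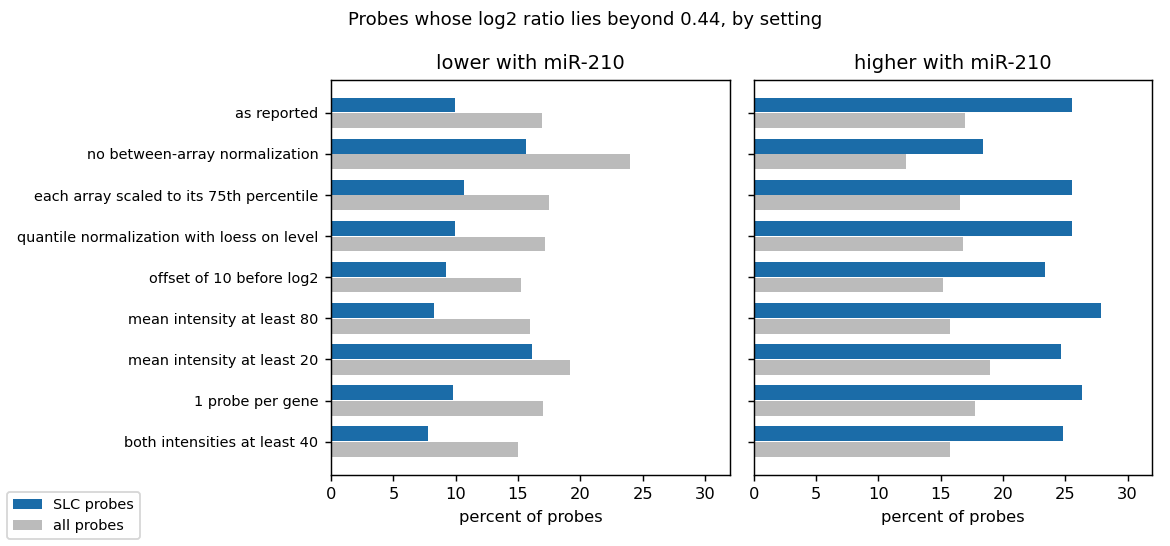
Percent of probes (horizontal) whose log2 ratio lay more than 0.44 below 0 (left panel) or above 0 (right panel), for SLC probes in blue and all probes at the same level in grey, under the values as reported and each alternative setting. As reported, 25.5% of SLC probes were beyond 0.44 on the higher side and 9.93% on the lower side, against 16.9% and 17% of all probes. The counts at 0.44 were chosen after the values were seen, and all settings reuse the same 2 arrays.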

How the data were processed

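The authors deposited 1 intensity per probe for each of 2 arrays, whole numbers from -8 to 65496. Per the labels' protocols, aminoallyl-cRNA from 500 ng of total RNA was labelled with Cy5. The labels name no scanner, background correction or normalization; values under 0 show that a background had been subtracted. Arrays were quantile normalized over all 24267 probes (Python 3.11.15, pandas 2.3.3), and log2 ratios of miR-210 over ncRNA were taken where both values exceeded 0, which left out 90 probes. No log2 values came from the authors.

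The platform annotation named 13395 probes with 1 symbol, none with several, and 10872 are unnamed here. Symbols were updated through unambiguous synonyms listed by RefSeq (GRCh38.p14), which changed 31 of the 307 SLC symbols. Named probes are those at least 2-fold apart, in each carrier group the 3 brightest and the most extreme, genes with several probes, and 11 fixed genes where measured; the rest are given so that every member is accounted for. Members, carrier groups, gene lists and motifs were chosen with earlier results of these data known. The alternatives were no between-array normalization, scaling to the 75th percentile, loess on level (span 0.3), an offset of 10, level minimums of 80 and 20, 1 probe per gene, and both values at least 40. The calculation was tested on simulated data: in 8 runs of 24267 probes, true log2 changes of 1.5 and -1.5 were recovered at mean medians of 1.49 and -1.49. The simulation called 0.46% of unchanged probes at least 2-fold apart, where the data called 6.02% of all probes at the level. It checks the calculation and not the noise of these arrays. Precision is limited by the number of arrays.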

Additional observations from a re-analysis of the deposited data

How the results depend on the processing

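With 1 array per group, no replicate could be left out. No paired analysis was possible because each group holds 1 sample. Scaling to the 75th percentile, loess on level and 1 probe per gene kept every count within 1.5 times its reported value and every group median within the probe SD over the root of its size. Without normalization between arrays, where the median of all probes fell by 0.13, 0 SLC probes were at least 2-fold higher, 22 lay more than 0.44 below 0, and the medians were -0.054 for all SLC probes, -0.011 for amino acid, 0.065 for metal, -0.11 for mitochondrial and -0.10 for nucleotide sugar carriers. The 2-fold shares there were 0% higher and 4.96% lower, against 1.99% and 4.62% of all probes. More than 0.44 below 0 lay 15.6% of SLC probes, against 24% of all probes. With the offset of 10, 2 were at least 2-fold higher, or 1.42% against 2.15% of all probes. With a level minimum of 80, 97 SLC probes were left, 2 at least 2-fold higher, 2 at least 2-fold lower and 8 more than 0.44 below 0; the medians were 0.12 for all, -0.25 for sugar, 0.32 for metal, 0.25 for organic acid and 0.45 for ion carriers. With a minimum of 20, 199 SLC probes gave 13 at least 2-fold lower and 32 more than 0.44 below 0, and medians of -0.11 for fatty acid and 0.12 for choline, cation and anion carriers. At a minimum of 80 the 2-fold shares were 2.06% higher and 2.06% lower, against 2.64% and 2.84% of all probes. At a minimum of 20 they were 3.02% and 6.53%, against 3.78% and 4.22%. More than 0.44 below 0 lay 8.25% at 80 and 16.1% at 20, against 16% and 19.1% of all probes. With both values at least 40, 2 were at least 2-fold lower, or 1.55% against 2.33% of all probes. Under the level alternatives the shift follows from the smaller or larger set of probes; under the others the cause was not tested. The counts at 0.44 were added after the data were seen. In each setting the SLC share was above that of all probes on the higher side and below it on the lower side. All settings reuse the same 2 arrays and overlapping probes, so their agreement is no independent check. Of 248 values of 62 named probes under the 4 scaling and offset alternatives, none moved by 0.44 or more and 3 changed sign, none of them called. Of 36 values of the 9 called probes, 29 stayed at least 2-fold apart. Among the members, 9 had 1 of their values under the array median, which is not a measure of background. A mean intensity from 40 to under 80 was found for 44 of the 141 member probes. Whether these or other members exceeded background was not tested.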
